A study of Mus musculus with 8 samples.

Results

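Adrenomedullin is a vasodilator peptide cut from a secreted precursor that the gene Adm encodes. It acts through Calcrl, the calcitonin receptor-like receptor, a G protein-coupled receptor that reaches the cell surface as a pair with a receptor activity-modifying protein (RAMP). The RAMP sets which ligand the pair prefers: Ramp2 and Ramp3 give adrenomedullin receptors, and Ramp1 gives the receptor for calcitonin gene-related peptide (CGRP). The receptor couples to Gs and raises cyclic AMP. The pathway is best known in blood and lymphatic vessels, where it keeps the endothelial barrier and relaxes smooth muscle, and Adm is a known hypoxia-induced gene.

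The 5 genes Adm, Calcrl, Ramp1, Ramp2 and Ramp3 were taken by symbol from a table of 24419 genes measured by RNA sequencing in fibroadipogenic progenitors (FAPs), the stromal progenitors of skeletal muscle. The 8 libraries were of FAPs sorted from hindlimb muscle, and all mice were male and of the C57BL/6J strain. In the miR-27a-KD group (n = 3) the pancreas had received cells of KPCY, a mouse pancreatic cancer line, that carried a lentiviral vector against miR-27a-3p and had been selected with puromycin. In the KPC Scr group (n = 3) the cells carried a lentiviral scrambled sequence and were selected and implanted alike, and the sham group (n = 2) had sham surgery with no tumour cells. The inhibitor was in the implanted cells and not in the FAPs, and each tumour group rests on 1 stable cell line. Ages, times of collection and library batches are not known from the labels.

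The gene Adm was picked because it was among the genes called lower in miR-27a-KD than in KPC Scr libraries, and the receptor genes were picked as its partners with results of the same data known. The values of Adm in all 3 comparisons, and of every member between miR-27a-KD and KPC Scr, are therefore descriptions without a test. The other receptor comparisons draw on the same libraries.

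The inhibited microRNA, mmu-miR-27a-3p, is shown because the groups differ by it. It lies at chr8:84208727-84208747 on the + strand (GRCm38.p6, RefSeq). Capitals mark its seed, bases 2 to 8.

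mmu-miR-27a-3p: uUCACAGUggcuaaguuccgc

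The match to this seed, ACTGTGA, stood in none of the longest annotated 3′ UTRs of the 5 members, which run from 558 bases in Ramp2 to 2828 bases in Calcrl (GENCODE M21). Of 12655 tested genes with an annotated 3′ UTR, 17.8% held it.

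In mm10, Adm (ENSMUSG00000030790.15) lies on chromosome 7 from 110627661 to 110629820 on the + strand. The 250 bases before its RefSeq start, at chr7:110627407-110627656 on the + strand (GRCm38.p6), are shown because its transcript differed most of the 5 between groups. Capitals mark TATAAG, whose first base lies 27 bases before the start.

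Adm promoter: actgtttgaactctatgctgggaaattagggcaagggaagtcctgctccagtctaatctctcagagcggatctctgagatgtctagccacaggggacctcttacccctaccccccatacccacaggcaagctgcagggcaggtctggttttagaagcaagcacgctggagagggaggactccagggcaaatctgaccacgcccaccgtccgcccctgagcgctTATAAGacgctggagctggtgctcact

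TATAAG overlaps a copy of itself on the other strand and stood, on either strand, in 6.81% of 27025 promoters of this length. The hypoxia response core ACGTG stood in 16.6% of them, the STAT letters TTCNNNGAA in 7.18%, the cyclic AMP response letters TGACG in 17.9% and the glucocorticoid receptor letters AGAACA in 16.2%. None of these 4 was found in this window on either strand. No match says only that these letters are not in these bases.

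Total counts ran from 17454630 to 22197054 in miR-27a-KD, from 16183771 to 28340450 in KPC Scr and were 15647436 and 17384878 in sham libraries. KPC Scr libraries 1 and 3 stood apart, at 115.5 and 92.0 on the first principal component of log2 CPM (the read count as a rate of the library's reads, scaled by a TMM factor), while KPC Scr library 2 lay at -12.3 and the other 5 libraries between -47.7 and -32.3. Pdgfra, the receptor that marks FAPs, was between 1260 and 1590 CPM in every library, while Cd34, Pi16 and Col3a1, other FAP markers, were lower in KPC Scr libraries 1 and 3 than in the other 6. Dcn, also a FAP marker, was higher in KPC Scr libraries 1 and 3, at 25000 and 21100 CPM, than in the other 6. Of 12 FAP markers listed, 4 had a positive and 8 a negative log2 change for KPC Scr against sham. The sort excluded CD31, CD45 and α7-integrin, and the genes of these had group means of at most 55.6 CPM for Pecam1 (CD31), 8.61 for Itga7 and 1.28 for Ptprc (CD45). Of 13646 genes that passed the filter on low counts, 0.0513% were called between miR-27a-KD and KPC Scr libraries, 1.58% between KPC Scr and sham libraries and 0.00733% between miR-27a-KD and sham libraries (edgeR's quasi-likelihood test, adjusted p under 0.05). At an unadjusted p under 0.05 there were 32.4%, 29.2% and 2.37% of the tested genes in the same order, and DESeq2 called 16.9%, 15.1% and 0.183%. The p-values measure the spread between these libraries, pooled over the 3 groups.

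Transcripts of the ligand were many times more abundant in the FAPs of mice with KPC Scr tumours than in the other groups. Adm stood at 212, 137 and 204 CPM in miR-27a-KD libraries 1, 2 and 3. In KPC Scr libraries 1, 2 and 3 it stood at 1579, 668 and 1328 CPM, and in sham libraries 1 and 2 at 92.0 and 85.7 CPM. No group overlapped another: every KPC Scr library was highest, every sham library lowest, and the miR-27a-KD libraries lay between.

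The reads behind these values were many: 2460 to 4652 per library in miR-27a-KD, 15801 to 40305 in KPC Scr, and 1455 and 1536 in sham. By CPM, Adm ranked between 671 and 1142 among the 24419 genes in miR-27a-KD libraries, between 71 and 188 in KPC Scr libraries, and 1901 and 2014 in sham libraries. It thus belonged to the most abundant transcripts of the KPC Scr libraries. In bulk RNA of sorted cells, more expressing cells and more RNA per cell cannot be told apart.

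The means were 184 ± 40.9 CPM (SD, n = 3) in miR-27a-KD, 1192 ± 471 (n = 3) in KPC Scr and 88.9 ± 4.48 (n = 2) in sham libraries. The fitted log2 change was -2.69 ± 0.33 (SE) for miR-27a-KD against KPC Scr, so that miR-27a-KD stood at 0.155 times the KPC Scr level. This is the call Adm was picked by, 1 of 7 genes called in the comparison and of the 0.0440% called lower. KPC Scr was 13.4-fold above sham (log2 3.74 ± 0.41), and miR-27a-KD was 2.07-fold above sham (log2 1.05 ± 0.36). Both contrasts share libraries with the first.

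KPC Scr libraries differed among themselves, with Adm in library 2 at less than in either other library and still above every miR-27a-KD library. With KPC Scr library 2 as the only KPC Scr library, an alternative added after seeing the data, the log2 changes of Adm were -1.86 ± 0.20 for miR-27a-KD against KPC Scr and 2.91 ± 0.22 for KPC Scr against sham. There the single library is assumed to vary like those of the other groups.

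**Figure D1:**
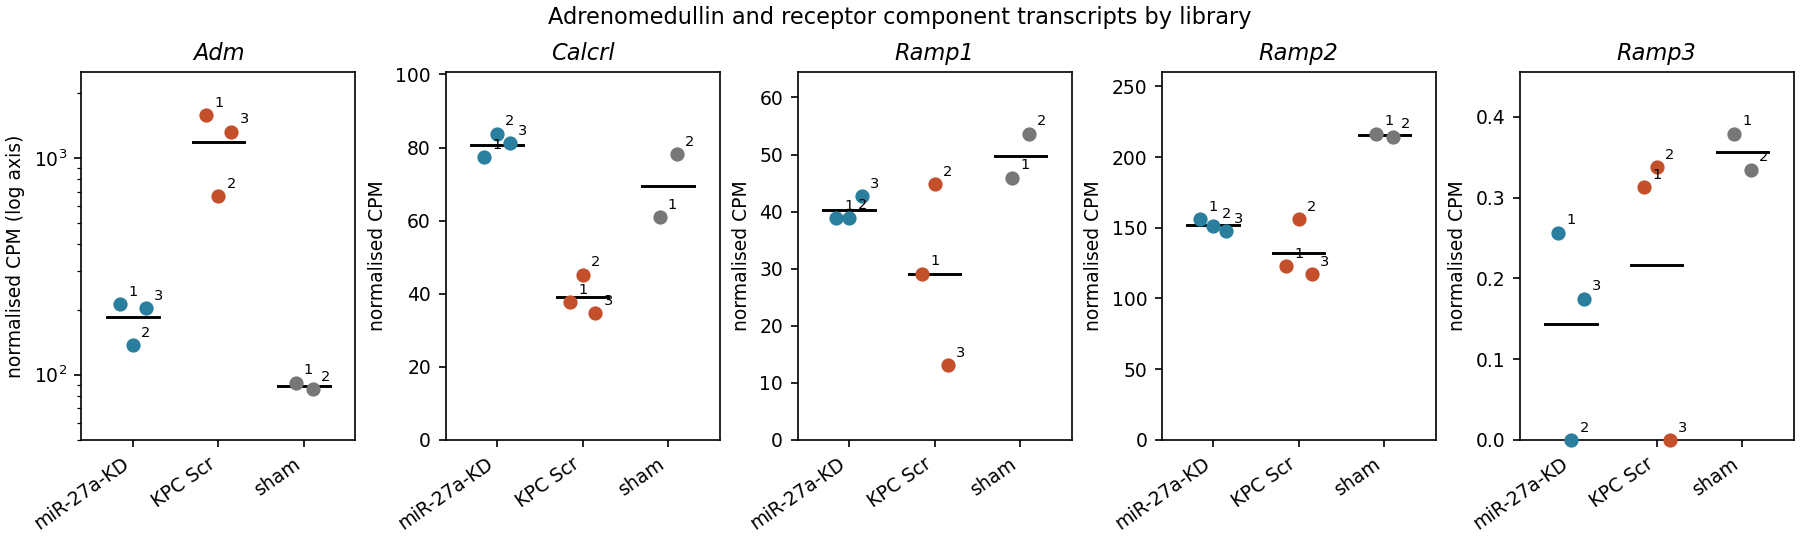
Normalised CPM of the 5 genes in each library, with miR-27a-KD, KPC Scr and sham from left to right, the replicate number beside each point and the group mean as a line; Adm is on a log axis. The KPC Scr libraries have the highest Adm, between 668 and 1579 CPM, and the lowest Calcrl, between 34.6 and 45.2 CPM.

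The receptor went the other way from its ligand in the comparisons that include KPC Scr. Calcrl (ENSMUSG00000059588.13, chromosome 2 from 84330626 to 84425411, - strand, mm10) stood at 77.4, 83.8 and 81.1 CPM in miR-27a-KD libraries 1, 2 and 3. It stood at 37.6, 45.2 and 34.6 CPM in KPC Scr libraries 1, 2 and 3, and at 60.9 and 78.2 CPM in sham libraries 1 and 2. The KPC Scr libraries were below all 5 others, and the ranges of miR-27a-KD and sham overlapped.

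Calcrl averaged 80.8 ± 3.23 CPM (SD, n = 3) in miR-27a-KD, 39.2 ± 5.46 (n = 3) in KPC Scr and 69.5 ± 12.3 (n = 2) in sham libraries. The log2 change was 1.04 ± 0.17 (SE) for miR-27a-KD against KPC Scr, a description as above. For KPC Scr against sham it was -0.83 ± 0.18, with a 95% interval from -1.24 to -0.42, and missed the threshold (edgeR, adjusted p = 0.0576). Between miR-27a-KD and sham it was 0.22 ± 0.18 with an interval from -0.20 to 0.63 (adjusted p = 1). Without KPC Scr library 2 the change of KPC Scr against sham was -0.94 and was called (edgeR, adjusted p = 0.000454). That fit called 51% of all genes in this comparison. Among the 16 alternatives, the fit of only the groups compared gave an adjusted p of 0.242 (edgeR).

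Ramp2, the partner that makes Calcrl an adrenomedullin receptor, was the most abundant RAMP transcript in every library. It lies on chromosome 11 from 101246028 to 101259546 on the + strand (ENSMUSG00000001240.13, mm10). It stood at 156, 151 and 148 CPM in miR-27a-KD libraries 1, 2 and 3, at 123, 156 and 117 CPM in KPC Scr libraries 1, 2 and 3, and at 217 and 215 CPM in sham libraries 1 and 2. Both sham libraries were above all 6 libraries from mice with tumours, while the tumour groups overlapped each other.

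The log2 change of Ramp2 was 0.20 ± 0.16 (SE) for miR-27a-KD against KPC Scr. For KPC Scr against sham it was -0.71 ± 0.17, with a 95% interval from -1.09 to -0.32, and it was not called (edgeR, adjusted p = 0.0667). For miR-27a-KD against sham it was -0.51 ± 0.17, with an interval from -0.89 to -0.12, and was not called (adjusted p = 1). The change of KPC Scr against sham was called without KPC Scr library 2 (log2 -0.84, edgeR, adjusted p = 0.000246). That fit called 51% of all genes in this comparison. With only the groups compared the adjusted p was 0.261 (edgeR). Ramp2 overlaps Vps25, a gene of endosomal sorting on the same strand, so reads where they overlap can belong to either.

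Ramp1, the partner for CGRP, was uneven within KPC Scr. It lies on chromosome 1 from 91179822 to 91225196 on the + strand (ENSMUSG00000034353.14, mm10). It stood at 38.9, 39.0 and 42.7 CPM in miR-27a-KD libraries 1, 2 and 3, at 29.2, 44.8 and 13.0 CPM in KPC Scr libraries 1, 2 and 3, and at 45.9 and 53.7 CPM in sham libraries 1 and 2. KPC Scr library 3 was the lowest of all, with 207 reads, while KPC Scr library 2 was above every miR-27a-KD library.

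The log2 change of Ramp1 was 0.46 ± 0.35 (SE) for miR-27a-KD against KPC Scr. Against sham it was -0.77 ± 0.39 in KPC Scr (95% interval from -1.65 to 0.11; edgeR, adjusted p = 0.211) and -0.31 ± 0.39 in miR-27a-KD (-1.19 to 0.57; adjusted p = 1). Without KPC Scr library 2 the change of KPC Scr against sham was -1.19 and was called (edgeR, adjusted p = 0.00483). That fit called 51% of all genes in this comparison. With only the groups compared the adjusted p was 0.368 (edgeR). Without KPC Scr library 3 the change of KPC Scr against sham was -0.43.

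Ramp3, the other adrenomedullin partner, was close to the limit of detection and did not pass the filter on low counts. It lies on chromosome 11 from 6658521 to 6677475 on the + strand (ENSMUSG00000041046.7, mm10). It had 5, 0 and 4 reads in miR-27a-KD libraries 1, 2 and 3, 8, 8 and 0 reads in KPC Scr libraries 1, 2 and 3, and 6 reads in each sham library. Counting error lets a gene with up to 3 reads in expectation show 0, so no difference between groups was detectable at this depth.

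**Figure D2:**
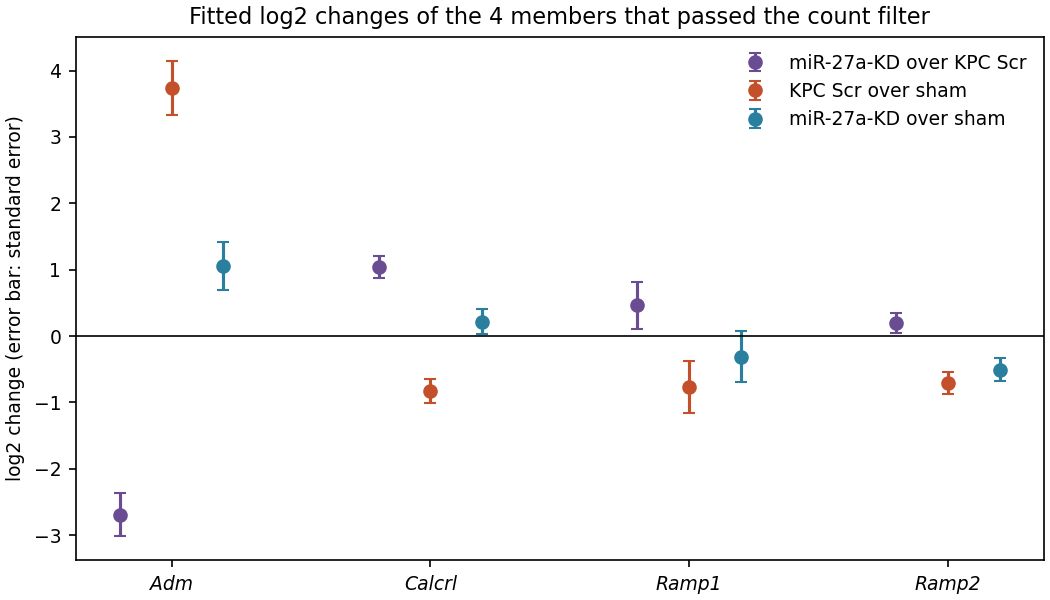
Fitted log2 changes, with standard errors as bars, of Adm, Calcrl, Ramp1 and Ramp2, with the first-named group over the second. Adm lies at -2.69 for miR-27a-KD over KPC Scr and 3.74 for KPC Scr over sham, and the 3 receptor genes lie between -0.83 and -0.71 for KPC Scr over sham.

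KPC Scr and sham libraries did not overlap for any of the 4 members that passed the filter. Adm was higher in KPC Scr, as were 20.2% of all tested genes without overlap, and Calcrl, Ramp1 and Ramp2 were lower, as were 20.8%. Between miR-27a-KD and KPC Scr, Adm was lower without overlap, as were 16.7% of genes, and Calcrl higher, as were 17.5%. Between miR-27a-KD and sham, Adm was higher without overlap, as were 13.8% of genes, and Ramp1 and Ramp2 lower, as were 13.5%. Shares this large are common in these libraries, and the counts are read only as a description. No receptor gene was called by edgeR in the comparisons with sham (DESeq2 called Calcrl and Ramp2 for KPC Scr against sham), where for KPC Scr 1.10% of tested genes were called higher and 0.476% lower. In simulated counts the fit recovered 8% of 2-fold changes for KPC Scr against sham and 14% for miR-27a-KD against sham. The simulation changed only a small part of the genes. In the data 29.2% of tested genes had an unadjusted p under 0.05 for KPC Scr against sham, so the recovery there may differ. The receptor changes against sham were under 2-fold, and the missing calls do not show that they are absent.

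Levels of different genes were compared per kilobase of exon. Ramp2 stood at 44.8 to 47.3 CPM per kilobase in miR-27a-KD, 35.6 to 47.3 in KPC Scr, and 65.0 and 65.7 in sham libraries. Ramp1 stood at 12.9 to 14.1, 4.32 to 14.8, and 15.2 and 17.8 CPM per kilobase in miR-27a-KD, KPC Scr and sham libraries. Calcrl stood at 15.9 to 17.2 in miR-27a-KD, 7.09 to 9.26 in KPC Scr, and 12.5 and 16 in sham libraries. Ramp2 was thus above Calcrl and Ramp1 in each library on this scale.

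Of the 3 RAMP transcripts summed per kilobase, Ramp2 made up 75.8% to 78.4% in miR-27a-KD, 75.8% to 89.2% in KPC Scr, and 78.3% and 80.9% in sham libraries. The highest share, in KPC Scr library 3, is the library with the fewest Ramp1 reads. Ramp3 made up at most 0.483% in any library. With the longest transcript as the length Ramp2 made up 84.4% to 93.4% over the 8 libraries.

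The balance of the RAMPs and Calcrl differed between the groups, a ratio chosen after its values were seen and so not tested. The summed RAMP level per Calcrl level was 3.81, 3.42 and 3.55 in miR-27a-KD libraries 1, 2 and 3. It was 6.11, 6.74 and 5.62 in KPC Scr libraries 1, 2 and 3, and 6.51 and 5.18 in sham libraries 1 and 2. The miR-27a-KD libraries were below all others, and KPC Scr and sham overlapped. The size of the ratio depends on the length used. Ramp2 has 3301 exon bases in the union and 1478 in its longest transcript, and Calcrl has 4882 by either length. With the longest transcript as the length the ratio is thus higher in every library. In KPC Scr, Calcrl and Ramp2 were both below sham, whereas in miR-27a-KD Calcrl overlapped sham and Ramp2 was below it.

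The ligand exceeded the receptor per kilobase in every library. Adm stood at 8.26, 4.94 and 7.56 times Calcrl in miR-27a-KD libraries 1, 2 and 3, at 127, 44.5 and 116 times in KPC Scr libraries 1, 2 and 3, and at 4.56 and 3.30 times in sham libraries 1 and 2. The KPC Scr libraries were far above the others, and those of miR-27a-KD were above sham by a small margin.

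**Figure D3:**
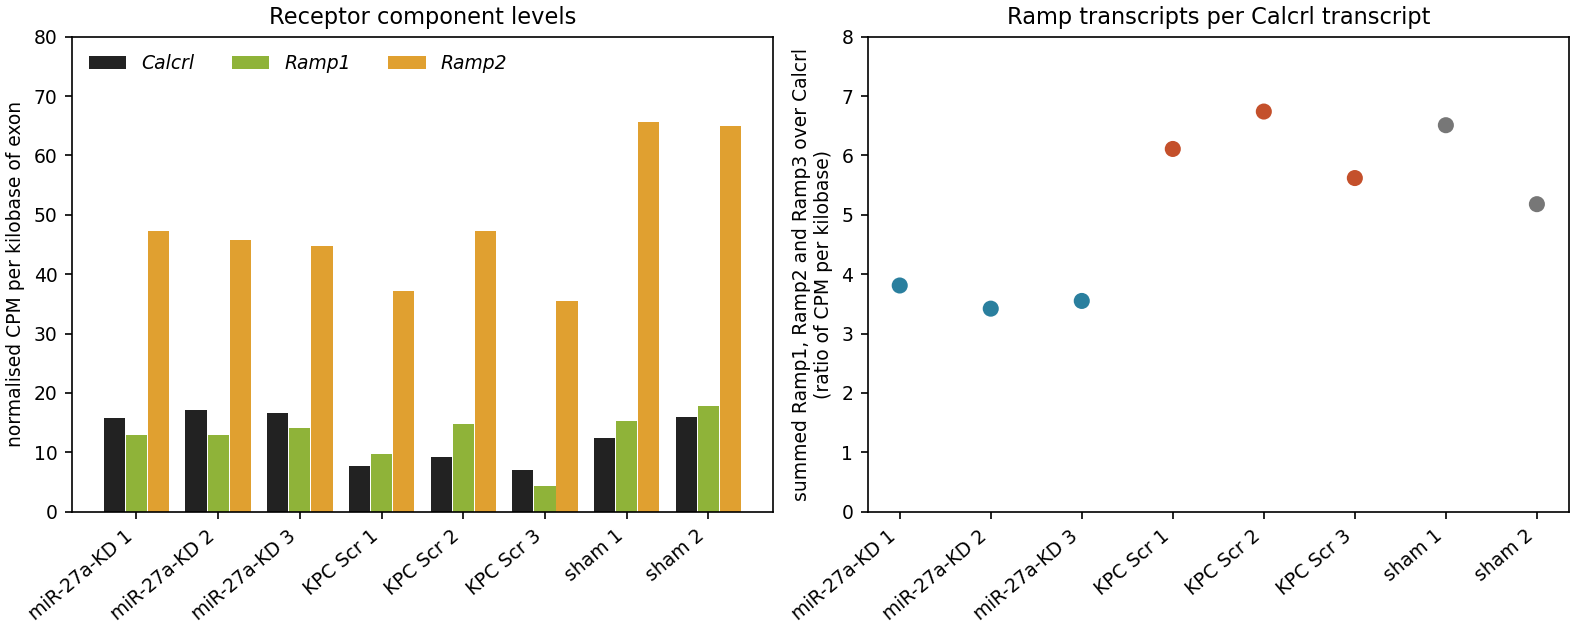
Left, CPM per kilobase of exon of Calcrl, Ramp1 and Ramp2 in each library; right, summed RAMP level over Calcrl level on the same scale. The ratio lies between 3.42 and 3.81 in miR-27a-KD and between 5.18 and 6.74 in the KPC Scr and sham libraries.

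Other ligands of the calcitonin family were nearly absent. Adm2, the ligand closest in function to adrenomedullin, and Calcb, which encodes the beta form of CGRP, had 0 reads in every library. Calca, which encodes calcitonin and alpha CGRP, and Iapp, which encodes amylin, had at most 0.262 CPM in any library, and Calcr, the calcitonin receptor that also pairs with RAMPs, at most 0.306 CPM. Adm was therefore the only one of these 5 ligands with more than 1 CPM.

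Ackr3, an atypical chemokine receptor reported to bind adrenomedullin as well, was abundant. It stood at 861, 875 and 926 CPM in miR-27a-KD libraries 1, 2 and 3, at 564, 757 and 421 CPM in KPC Scr libraries 1, 2 and 3, and at 1130 and 981 CPM in sham libraries 1 and 2. The groups did not overlap, with KPC Scr lowest, as for Calcrl. Without overlap, 17.5% of all tested genes were higher in miR-27a-KD than in KPC Scr libraries, and 20.8% lower in KPC Scr than in sham libraries. The log2 change of Ackr3 was 0.61 ± 0.22 (SE) for miR-27a-KD against KPC Scr and -0.86 ± 0.24 for KPC Scr against sham. Neither was called (edgeR, adjusted p = 0.11 and 0.0858). Crcp, a receptor component protein that couples Calcrl to its signalling, was level at group means of 14.8 CPM in miR-27a-KD, 11.9 in KPC Scr and 12.2 in sham libraries (adjusted p from 0.394 to 1). Of this list 3 of 8 genes were tested, and edgeR called 0 in any comparison. At an unadjusted p under 0.05 there were 2 for miR-27a-KD against KPC Scr, 1 for KPC Scr against sham and 0 for miR-27a-KD against sham, and DESeq2 called 1, 1 and 0. Without KPC Scr library 2 edgeR called 3, 1 and 0, where it called 54%, 51% and 0.236% of all tested genes.

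Pam and Mme, genes for maturing and clearing the peptide, were both expressed, and neither was called in any comparison. Pam, the enzyme that amidates adrenomedullin and so makes it active, averaged 481 CPM in miR-27a-KD, 356 in KPC Scr and 523 in sham libraries, with a log2 change of -0.56 ± 0.27 for KPC Scr against sham (edgeR, adjusted p = 0.201). Mme, the protease neprilysin that degrades many peptides, averaged 157, 171 and 124 CPM in miR-27a-KD, KPC Scr and sham libraries (adjusted p from 0.209 to 1). Of 9 tested genes of this list 0 were called between miR-27a-KD and KPC Scr or between miR-27a-KD and sham libraries by edgeR, and DESeq2 called 5 and 0. Of all tested genes DESeq2 called 16.9% and 0.183% in these comparisons. At an unadjusted p under 0.05 there were 5 of 9 for miR-27a-KD against KPC Scr, 5 for KPC Scr against sham and 1 for miR-27a-KD against sham, against 32.4%, 29.2% and 2.37% of all tested genes.

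Downstream of the receptor, genes of the Gs, cyclic AMP and protein kinase A pathway lay on both sides of 0. Of 36 tested, edgeR called 0 in any of the 3 comparisons, and their median log2 change was 0.12 for miR-27a-KD against KPC Scr, -0.07 for KPC Scr against sham and 0.01 for miR-27a-KD against sham, where that of all genes was 0.01, 0.00 and 0.00. At an unadjusted p under 0.05 there were 9, 10 and 1 of the 36, shares near those of all tested genes (32.4%, 29.2% and 2.37%), and DESeq2 called 7, 5 and 0. Adcy5, an adenylyl cyclase, had the smallest p in the first 2 comparisons: it averaged 28.0 CPM in miR-27a-KD, 56.2 in KPC Scr and 29.9 in sham libraries (log2 -1.0 ± 0.19 and 0.91 ± 0.22; edgeR, adjusted p = 0.061 and 0.0668).

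Genes known to respond to cyclic AMP had a median log2 change of -0.93 for miR-27a-KD against KPC Scr, 1.17 for KPC Scr against sham and 0.13 for miR-27a-KD against sham. Of 12 tested, 1 was called: Nfil3, a transcriptional repressor, averaged 131 CPM in miR-27a-KD, 278 in KPC Scr and 44.1 in sham libraries, and rose in KPC Scr against sham by 2.66 ± 0.34 on the log2 scale (edgeR, adjusted p = 0.018, from 3.16e-12 to 0.206 over its alternatives). Of all tested genes, 1.10% were called higher in KPC Scr against sham. In the same order as the medians, 6, 9 and 1 of the 12 had an unadjusted p under 0.05. The shares of all tested genes were 32.4%, 29.2% and 2.37%. The genes of this list answer to many other signals too. Per1 and Dusp1 also stand in the list of glucocorticoid-induced genes.

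Genes induced by hypoxia were split in direction. Of 22 tested, 11 had a positive and 11 a negative log2 change for KPC Scr against sham, with a median of 0.20. For miR-27a-KD against KPC Scr the split was again 11 and 11, with a median of 0.01. At an unadjusted p under 0.05 there were 10 of 22 for miR-27a-KD against KPC Scr and 10 for KPC Scr against sham. For miR-27a-KD against sham there were 0. The shares of all tested genes were 32.4%, 29.2% and 2.37%. Bnip3, a mitochondrial protein that promotes mitophagy, was the 1 member called in KPC Scr against sham, where 1.10% of tested genes were called higher. It stood at 18.7, 14 and 14.6 CPM in miR-27a-KD libraries 1, 2 and 3, at 175, 28.3 and 147 CPM in KPC Scr libraries 1, 2 and 3, and at 8.67 and 12.3 CPM in sham libraries 1 and 2. The rise was 3.48 ± 0.69 on the log2 scale (edgeR, adjusted p = 0.0482, from 2.9e-07 to 0.399 over its alternatives). KPC Scr library 2 had much less Bnip3 than the other KPC Scr libraries, and with it as the only KPC Scr library the log2 change was 1.43.

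Other hypoxia-induced genes differed widely from each other, and those named here were chosen after their values were seen. Pfkfb3, a regulator of glycolysis, stood at 23.0, 20.0 and 24.5 CPM in miR-27a-KD libraries 1, 2 and 3, at 212, 23.3 and 174 CPM in KPC Scr libraries 1, 2 and 3, and at 18.7 and 12.1 CPM in sham libraries 1 and 2 (log2 3.15 ± 0.78 for KPC Scr against sham). Ddit4, a stress-induced inhibitor of mTOR signalling that also stands in the glucocorticoid list, had a log2 change of 2.71 there, Slc2a1, a glucose transporter, 1.24 and Kdm3a, a histone demethylase, 1.19. All 4 had negative changes for miR-27a-KD against KPC Scr, as Adm had, and in each of them KPC Scr library 2 was the lowest of the KPC Scr libraries. Vegfa, which encodes an endothelial growth factor, averaged 213 CPM in miR-27a-KD, 304 in KPC Scr and 215 in sham libraries, and Pgk1, a glycolytic enzyme, 22.2, 18.2 and 26.2 CPM in the same groups. P4ha2, which hydroxylates collagen, averaged 132 CPM in miR-27a-KD, 53.9 in KPC Scr and 159 in sham libraries. None of these 7 was called in any comparison (edgeR, adjusted p from 0.0699 to 1). DESeq2 called 8 of the 22 genes for miR-27a-KD against KPC Scr and 7 for KPC Scr against sham. Of all tested genes DESeq2 called 16.9% and 15.1% in these comparisons. Of 10 HIF subunits and oxygen sensors edgeR called 0 in any comparison, with 4, 2 and 0 at an unadjusted p under 0.05, and DESeq2 called 1, 1 and 0, with Hif1a at 80.9, 70.7 and 67.7 CPM in miR-27a-KD, KPC Scr and sham libraries. Hif3a averaged 4.83, 19.8 and 6.35 CPM in the same groups. It had the smallest p of these genes for miR-27a-KD against KPC Scr and for KPC Scr against sham. Its log2 changes there were -2.03 ± 0.51 and 1.63 ± 0.58 (edgeR, adjusted p = 0.0728 and 0.122).

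Glucocorticoid-induced genes mostly had changes of the same sign as Adm, as already known of these data when the list was drawn up. All 14 were tested, 14 had a positive log2 change for KPC Scr against sham and 4 were called higher there, with a median of 2.10. At an unadjusted p under 0.05 there were 14, against 29.2% of all tested genes. Of all tested genes 1.10% were called higher in that comparison. For miR-27a-KD against KPC Scr 14 of 14 were negative, with a median of -1.61, 0 called by edgeR, 11 at an unadjusted p under 0.05 and 10 called by DESeq2. For miR-27a-KD against sham 13 were positive, with a median of 0.74, 0 called by edgeR, 5 at an unadjusted p under 0.05 and 1 called by DESeq2. Of all tested genes, 32.4% and 2.37% had an unadjusted p under 0.05 for miR-27a-KD against KPC Scr and against sham. DESeq2 called 16.9% and 0.183% of all tested genes there. The 4 called were Klf9, Cebpd, Pdk4 and Angptl4, with log2 changes of 2.04 ± 0.38, 2.06 ± 0.32, 4.78 ± 0.95 and 4.14 ± 0.65 (edgeR, adjusted p = 0.0419, 0.0252, 0.0482 and 0.0264, and up to 0.399 over their alternatives).

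**Figure D4:**
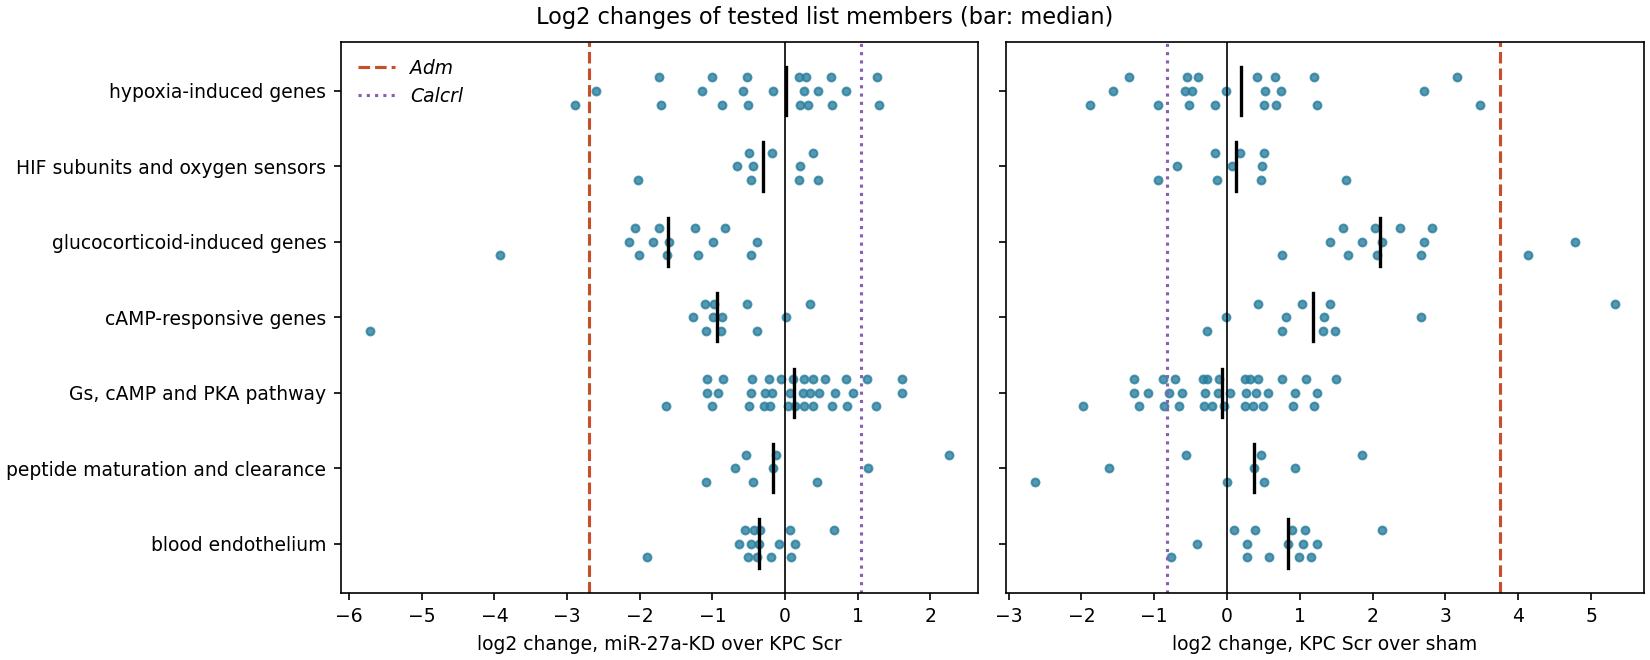
Log2 changes of the tested members of 7 gene lists, 1 point per gene and a black bar at the median, for miR-27a-KD over KPC Scr (left) and KPC Scr over sham (right), with Adm and Calcrl as vertical lines. Hypoxia-induced genes lie on both sides of 0, with a median of 0.20 on the right, and glucocorticoid-induced genes lie on the side of Adm, with medians of -1.61 and 2.10.

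The genes most like Adm were found over the 8 libraries among 3013 genes with a mean of at least 5 CPM and an SD of at least 0.5 on the log2 scale. They were Trib1, a pseudokinase (Pearson r = 0.993), Cp, which encodes the copper-binding acute-phase protein ceruloplasmin (0.993), Gadd45g, a stress-induced growth regulator (0.991), Fam43a (0.990), the transcription factor Stat3 (0.988) and Ctgf, a secreted matrix-associated protein (0.987). The points share their libraries and their groups, and the correlations describe the likeness only. Without KPC Scr library 2 the r of these 6 genes ran from 0.987 to 0.994, and Spearman's rho over all 8 libraries from 0.976 to 1.

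On the log2 scale each of the 6 had smaller changes than Adm in all 3 comparisons. Trib1 stood at 71.6, 65.5 and 68.9 CPM in miR-27a-KD libraries 1, 2 and 3, at 278, 143 and 220 CPM in KPC Scr libraries 1, 2 and 3, and at 40.2 and 37.7 CPM in sham libraries 1 and 2. Stat3 stood at 230, 200 and 240 CPM in miR-27a-KD libraries 1, 2 and 3, at 599, 343 and 530 CPM in KPC Scr libraries 1, 2 and 3, and at 190 and 177 CPM in sham libraries 1 and 2. In both genes KPC Scr library 2 was the lowest of its group, as in Adm. The log2 changes of the 6 ran from 1.42 to 2.67 for KPC Scr against sham and from -1.95 to -1.0 for miR-27a-KD against KPC Scr, where Adm had 3.74 and -2.69.

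The genes most like Calcrl were Neo1, a receptor for netrins (r = 0.986), the kinase Nrk (0.983) and Vangl1, a planar cell polarity protein (0.975). Neo1 stood at 155, 161 and 152 CPM in miR-27a-KD libraries 1, 2 and 3, at 69.2, 93 and 73.2 CPM in KPC Scr libraries 1, 2 and 3, and at 122 and 172 CPM in sham libraries 1 and 2, lowest in KPC Scr as Calcrl was. Among those most like Ramp1 were Mpst (0.972) and Hdac11 (0.971). Those most like Ramp2 were Fhl3 (0.962), Foxo6 (0.958) and Kcp (0.946). Kcp stood at 95.1, 96.6 and 111 CPM in miR-27a-KD libraries 1, 2 and 3, at 59.6, 73.7 and 40.2 CPM in KPC Scr libraries 1, 2 and 3, and at 194 and 183 CPM in sham libraries 1 and 2, highest in sham as Ramp2 was.

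**Figure D5:**
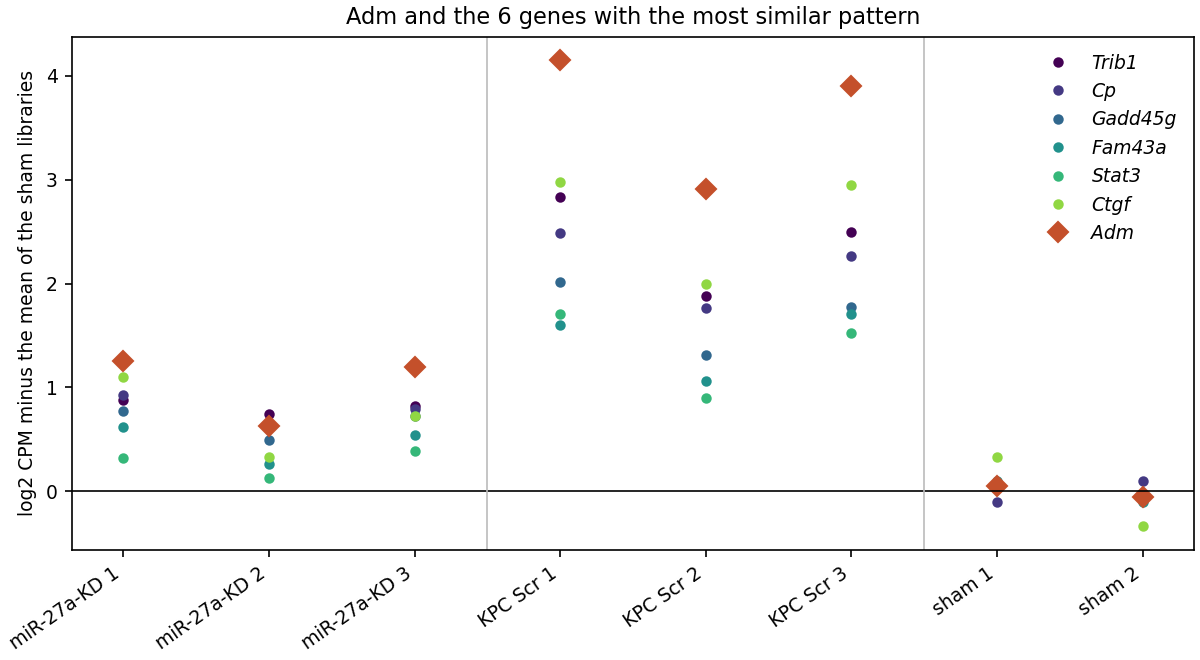
Log2 CPM minus the mean of the sham libraries for Adm (diamonds) and the 6 genes with the highest correlation to it, in each library. All 7 are highest in KPC Scr, where library 2 is the lowest of the 3, and Adm is above the other 6 in each KPC Scr library.

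Calcrl and Ramp2 are also genes of endothelium, so its markers are given beside them. The 15 blood endothelial markers summed to 623 to 734 CPM in miR-27a-KD, 493 to 690 in KPC Scr, and 641 and 589 in sham libraries 1 and 2. Tek alone was at 201 to 412 CPM, and the other 14, a sum added after seeing the data, came to 259 to 327 CPM in miR-27a-KD, 202 to 489 in KPC Scr, and 249 and 177 in sham libraries 1 and 2. For KPC Scr against sham 13 of the 15 had a positive log2 change, with a median of 0.84, 0 called by edgeR and 6 at an unadjusted p under 0.05, while Calcrl and Ramp2 had negative changes. For miR-27a-KD against KPC Scr 4 were positive and 11 negative, with a median of -0.36, 0 called and 2 at an unadjusted p under 0.05, while Calcrl had a positive change. Tek, the angiopoietin receptor, was at 357, 369 and 408 CPM in miR-27a-KD libraries 1, 2 and 3, at 201, 291 and 216 CPM in KPC Scr libraries 1, 2 and 3, and at 392 and 412 CPM in sham libraries 1 and 2, lowest in KPC Scr as Calcrl was. Cdh5, the cadherin of endothelial junctions, was present, at 46.6 CPM on average in miR-27a-KD, 44.6 in KPC Scr and 36.9 in sham libraries.

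The 6 lymphatic markers summed to at most 11.7 CPM in any library, and Ccl21a among them was at 0 throughout. The 10 pericyte and smooth muscle markers summed to 231 to 319 CPM in miR-27a-KD, 181 to 261 in KPC Scr, and 192 and 219 in sham libraries 1 and 2. The 10 macrophage and neutrophil markers summed to 14.9 to 46.7 CPM in miR-27a-KD, 24.4 to 44.9 in KPC Scr, and 21.0 and 14 in sham libraries 1 and 2. The 12 FAP markers summed to 103000 to 109000 CPM in miR-27a-KD, 77900 to 108000 in KPC Scr and 110000 in each sham library, and Gsn alone had 51000 to 74800 CPM in KPC Scr libraries. For KPC Scr against sham 4 of the 12 had a positive and 8 a negative log2 change, with a median of -0.92, 0 called by edgeR and 5 at an unadjusted p under 0.05. For miR-27a-KD against KPC Scr 8 were positive and 4 negative, with a median of 0.93. Dcn averaged 14800 CPM in miR-27a-KD, 21900 in KPC Scr and 12900 in sham libraries. Pi16, a marker of adventitial progenitors, stood at 2100, 2570 and 2390 CPM in miR-27a-KD libraries 1, 2 and 3, at 295, 2310 and 189 CPM in KPC Scr libraries 1, 2 and 3, and at 2720 and 2970 CPM in sham libraries 1 and 2. Col3a1, a fibrillar collagen, stood at 990, 10100 and 974 CPM in KPC Scr libraries 1, 2 and 3, against 22500 and 13200 CPM in sham libraries 1 and 2. The 10 muscle fibre markers summed to 44.0 to 54.4 CPM in miR-27a-KD, 66.7 to 234 in KPC Scr, and 32.5 and 59.5 in sham libraries 1 and 2, and the 7 adipocyte markers to at most 9.64 CPM, in KPC Scr library 1. Cd34, a surface marker of FAPs and of endothelium, stood at 1910, 1930 and 1810 CPM in miR-27a-KD libraries 1, 2 and 3, and at 213, 1180 and 241 CPM in KPC Scr libraries 1, 2 and 3, against 2250 and 2160 CPM in sham libraries 1 and 2. Whether changes in cell makeup take part in the values of Adm, Calcrl and Ramp2 was not tested.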

How the data were processed

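The authors deposited 1 table of raw read counts by gene symbol, with a column per library. The submitters' processing notes name R 4.2.1 with DESeq2 1.36.0, the aligners STAR and Bowtie, bcl2fastq 2.20 and the build mm10, but no order of steps. How reads were assigned to genes, by which annotation and with which strand setting, is not given in the sources. Per the labels' protocols the libraries were stranded mRNA libraries read as pairs of 59 bases. An antisense gene, Gm28863, overlaps Adm in GENCODE M21 and has no row in the count table.

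Tests used edgeR 4.0.16 under R 4.3.3: filterByExpr (minimum count 10, total 15), TMM, and a robust quasi-likelihood fit of 3 group means over 8 libraries. Tests were two-sided, adjusted by Benjamini and Hochberg over 13646 genes, with a threshold of 0.05. The standard error is the size of the log2 change over the root of F. CPM errors are SDs. The fit was tested on simulated counts in which only a small part of the genes was changed. It recovered 30% of 2-fold changes for miR-27a-KD against KPC Scr, 8% for KPC Scr against sham and 14% for miR-27a-KD against sham. Of 4-fold changes it recovered 74%, 68% and 74% in the same order. Log2 CPM used a prior count of 2, and lengths are unions of GENCODE M21 exons. The alternatives included DESeq2 1.42.0 and limma-voom 3.58.1.

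The members and lists were chosen with earlier results of these data known. The genes named were the members, up to 4 called genes of each list and comparison (otherwise up to 2 with the smallest p), the 6 genes most like Adm and 3 most like each receptor gene, and leading markers; Ackr3, Pam, Mme, Crcp, Vegfa, Pgk1, P4ha2, Pfkfb3, Ddit4, Slc2a1, Kdm3a, Hif1a, Ednra, Npr1 and Pth1r and Pi16 and Col3a1 among the markers, were named after their values were seen. Of the genes this rule names, 2 are not reported here. Counting error covers reads, not molecules.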

Additional observations from a re-analysis of the deposited data

How the results depend on the processing

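Over 16 alternatives, the log2 change of Adm ran from -2.99 to -1.86 for miR-27a-KD against KPC Scr, from 2.91 to 4.04 for KPC Scr against sham and from 0.90 to 1.22 for miR-27a-KD against sham. Leaving out 1 library at a time, the log2 changes for KPC Scr against sham ran from -1.0 to -0.64 for Calcrl, from -1.19 to -0.43 for Ramp1 and from -0.84 to -0.63 for Ramp2. With DESeq2, Calcrl (-0.81) and Ramp2 (-0.69) were called in that comparison. With KPC Scr library 2 as the only KPC Scr library, an alternative added after seeing the data, miR-27a-KD against KPC Scr gave -1.86 for Adm, 0.83 for Calcrl and -0.047 for Ramp2, KPC Scr against sham gave 2.91 for Adm, and Ramp2 was called for miR-27a-KD against sham (-0.51, edgeR, adjusted p = 0.0452). It was also called when only these groups were fitted (-0.51, adjusted p = 0.0459).

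The number of called genes depended on the method and on single libraries. For miR-27a-KD against KPC Scr it was 7, and 2301 with DESeq2, 1 with edgeR's legacy method, 11 without a filter, 0 with only the groups compared, 100 with KPC Scr library 2 alone and 0 to 7313 without 1 library. For KPC Scr against sham it was 215, and 2067, 133, 283, 4, 493 and 0 to 6908 in the same order. For miR-27a-KD against sham it was 1, and 25, 1, 2, 101, 103 and 0 to 32. Of the counts without 1 library, the highest in each comparison was without KPC Scr library 2, and the cause was not tested. With the replicate number as a block the counts were 0, 16 and 0, and no receptor gene changed its call. Wherever the count for miR-27a-KD against KPC Scr was 0, Adm was not called either. Correlations of deviations ran from -0.06 to 0.17 for libraries with the same number and from -0.15 to 0.07 for the others. In groups of 2 or 3 libraries the deviations depend on each other. Whether the numbers pair libraries therefore cannot be decided from these correlations. At 0 to 8 reads, Ramp3 was too shallow to compare.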

Other observations

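Of 15 other vasoactive ligands 5 passed the filter, and for KPC Scr against sham 2 were called higher, Agt and Edn1. Of all tested genes, 1.10% were called higher in that comparison. Edn1, which encodes the vasoconstrictor endothelin, stood at 47.5, 33.2 and 42.9 CPM in miR-27a-KD libraries 1, 2 and 3, at 98.5, 74.8 and 124 CPM in KPC Scr libraries 1, 2 and 3, and at 27 and 24.2 CPM in sham libraries 1 and 2. The groups did not overlap, in the order that Adm had. Without overlap, 20.2% of all tested genes were higher in KPC Scr than in sham libraries. In miR-27a-KD 16.7% were lower than in KPC Scr, and 13.8% higher than in sham libraries. Edn1 rose by 1.95 ± 0.26 on the log2 scale in KPC Scr against sham (edgeR, adjusted p = 0.0188, from 1.42e-09 to 0.206 over its alternatives). Agt, the precursor of angiotensin, stood at 25.4, 29.8 and 21.9 CPM in miR-27a-KD, at 103, 81.2 and 81.4 CPM in KPC Scr, and at 3.04 and 5.30 CPM in sham libraries. It was the 1 listed ligand besides the members called lower in miR-27a-KD than in KPC Scr libraries (log2 -1.79 ± 0.21, edgeR, adjusted p = 0.0491, from 1.29e-09 to 0.236 over its alternatives). Of all tested genes, 0.0440% were called lower there.

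Of 11 receptors for those ligands 10 were tested and edgeR called 0 in any comparison, with 3, 3 and 0 at an unadjusted p under 0.05 for miR-27a-KD against KPC Scr, KPC Scr against sham and miR-27a-KD against sham, and DESeq2 called 1, 2 and 0. For KPC Scr against sham 6 of the 10 had a positive and 4 a negative log2 change. Ednra, the endothelin receptor of smooth muscle, averaged 8.70 CPM in miR-27a-KD, 4.99 in KPC Scr and 9.07 in sham libraries. Ednrb, another endothelin receptor, averaged 3.38, 9.65 and 1.81 CPM in the same groups, and had the smallest p for KPC Scr against sham. Npr3 averaged 4.37, 19.6 and 5.23 CPM, and had the smallest p for miR-27a-KD against KPC Scr. Npr1, the receptor of atrial natriuretic peptide, averaged 213, 278 and 213 CPM in the same groups. Of 10 other receptors reported to pair with RAMPs 4 were tested and edgeR called 0, with 2, 2 and 0 at an unadjusted p under 0.05, and DESeq2 called 0, 1 and 0. Among them was Pth1r, the receptor for parathyroid hormone and its related protein, at 16 CPM in miR-27a-KD, 6.92 in KPC Scr and 9.04 in sham libraries (edgeR, adjusted p from 0.154 to 1).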
